A study of Zea mays with 11 samples.

Results

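The last 174 of the 44474 rows of a maize (*Zea mays*) anther count table carry old-style GRMZM identifiers in place of the Zm00001d identifiers of most other rows. They were chosen by the start of their identifier alone, and all 174 begin with GRMZM5G. In the B73 v4 annotation such identifiers are kept mainly for genes of the chloroplast and mitochondrial genomes. The libraries are 3 from anthers of the *pam1* mutant at prophase I of meiosis and 3 from wild-type anthers of the inbred line A344 at the same stage. PAM1 is a protein with an RNA recognition motif, and the question behind the comparison was which anther transcripts change when it is mutated. The labels give the mutant's line only as pam1. They do not say what its genetic background or its cytoplasm is, nor how many plants a library came from. Replicates may thus be separate plants or not, and p-values measure the spread between libraries, part of which may be technical.

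As background, plant chloroplasts and mitochondria keep small genomes of their own, in many copies per cell. The chloroplast genome encodes part of the photosynthetic complexes and of the organelle's own ribosomes and RNA polymerase. The mitochondrial genome encodes part of the respiratory chain and ATP synthase. Neighbouring organelle genes are often transcribed together, and the level of their transcripts is set to a large extent by processing and stability. Stable organelle transcripts mostly lack the long poly(A) tails of nuclear mRNA, so the way a library is made affects how many of them it holds. Maize anthers are known for their sensitivity to the mitochondrial genome, since cytoplasmic male sterility is a mitochondrial trait.

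The files do not pair the GRMZM rows with gene names, contigs or lengths. A gene table of another B73 assembly lists 18925 GRMZM identifiers as synonyms, 0 of which belong to its 214 mitochondrial and 158 plastid genes, and 0 of the 174 rows matched any of them. Whether a given row is a chloroplast gene, a mitochondrial gene or neither was therefore not tested, and the rows are called GRMZM rows and given no role. Of the 44146 Zm00001d rows, 0 matched an identifier of that gene table, so the defining markers of anther tissue and *pam1* itself could not be looked up by name and were not checked. Rows that share reads with a near-identical copy cannot be recognised.

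GRMZM rows took a small share of each library. They held 1.70, 1.57 and 1.46% of all counts in *pam1* replicates 1 to 3, against 2.12, 1.80 and 1.61% in A344 replicates 1 to 3. A344 replicates 1 and 2 lay above every *pam1* library, and A344 replicate 3 lay between *pam1* replicates 1 and 2, so the groups overlapped. Libraries of the same replicate number deviated together only weakly. Over all tested rows, their deviations from the group means correlated at 0.13, 0.12 and 0.13 for replicates 1 to 3. Over the tested GRMZM rows alone, these values were 0.16, 0.02 and 0.11. The labels do not say that the numbers pair libraries, so the pairs used here are an assumption. Within these pairs *pam1* was lower in 3 of 3, by 0.418, 0.235 and 0.154 points. Flipping signs within pairs gave an exact p of 0.25, the smallest that 3 pairs allow. The means were 1.57 ± 0.120% (SD, n = 3) in *pam1* against 1.84 ± 0.254% (SD, n = 3) in A344, a difference of −0.269 percentage points (p = 0.2 by a two-sided exact permutation test, where 0.1 is the smallest that 3 against 3 allows). Without A344 replicate 1 the difference was −0.133 points. Whole anthers were sampled, so fewer cells of a type and less RNA per cell cannot be told apart. Library totals were 1918457 to 2595247 counts, and 29205 to 51208 of these were in GRMZM rows. The 95% Wilson interval of each share was at most 0.0188 points to either side, which covers counting error only.

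**Figure D1:**
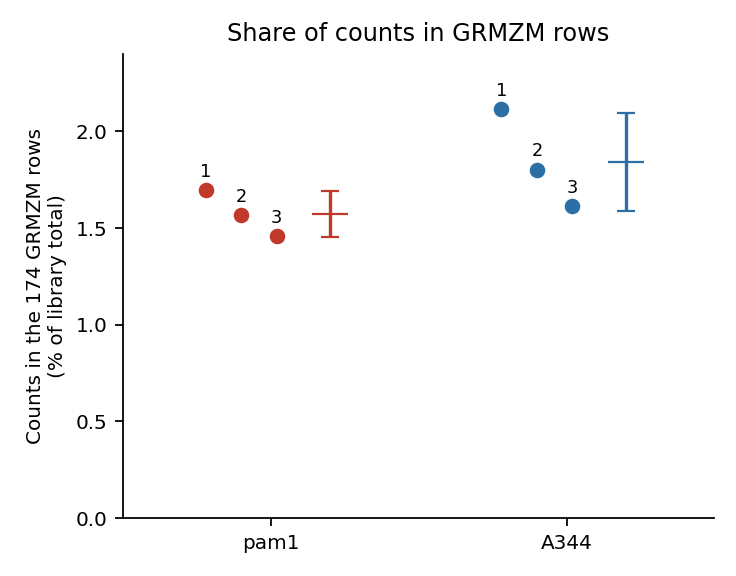
Percent of each library's counts that fell in the 174 GRMZM rows, with *pam1* left and A344 right; dots are libraries with their replicate number, and the bar beside them is the mean ± SD (n = 3). The *pam1* libraries lie at 1.46 to 1.70% and the A344 libraries at 1.61 to 2.12%, with overlap.

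The counts were concentrated in few rows. No count was found for 59 of the 174 rows, 54 more had too few counts for a test, and the 61 rows tested held 99.9% of all GRMZM counts. The 10 rows with the most counts held 75.0%. By mean CPM, which is the count scaled to a common library total, 9 GRMZM rows were among the top 100 rows of the whole table and 18 among the top 1000. CPM is not divided by gene length, so this order is one of counts collected and not of transcript number. GRMZM5G884912 stood first among the GRMZM rows and at rank 11 of the table, followed by GRMZM5G884538 at rank 18 and GRMZM5G845024 at rank 24.

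Of the 61 tested rows, 11 fell and 2 rose in *pam1*, and 48 were not called. The tests are edgeR's quasi-likelihood tests over all 18491 tested rows, with a Benjamini-Hochberg adjusted p under 0.05. The share changed was 21.3%, against a background of 14.9% over all tested rows. Called rows with a log2 fold change of at least 1 in size numbered 6 of the 61, all of them falls. The background for both directions together was 7.35%, and none was taken for falls of that size alone. By direction, 18.0% of GRMZM rows fell, against 6.68% of all tested rows, and 3.28% rose, against 8.18%. The median log2 fold change was −0.27 for the GRMZM rows and −0.01 for all tested rows, and the fitted value was below 0 for 44 of 61 rows, against 50.7% of all tested rows. GRMZM values ran from −1.54 to 0.48, and those of all tested rows from −6.90 to 10.04. A range over 61 rows cannot be set against one over 18491 rows, since ranges widen with the number of rows. The median size of the log2 fold change, without its sign, was 0.37 for the GRMZM rows and 0.25 for all tested rows.

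The balance of falls and rises depended on what the rows were measured against. With library sizes set to the GRMZM sum of each library, 6 rows fell and 5 rose, against a background of 2.39% and 11.7% of all tested rows. This scaling moved the median of all tested rows to 0.24 and that of the GRMZM rows to −0.0226, so here rows are compared with the other GRMZM rows. A block for the replicate number gave 14 falls and 5 rises, against backgrounds of 8.41% and 9.71%, and all 13 rows of the unblocked fit were among them. DESeq2 gave an adjusted p to 67 GRMZM rows and called 12 of these lower and 0 higher, against 3.34% and 4.27% of all 24906 rows with a DESeq2 adjusted p. At an unadjusted p under 0.05, DESeq2 had 5 of the 61 rows tested by edgeR higher. No share of all rows was taken at that limit, so this number cannot be set against a background. Without *pam1* replicate 1, *pam1* replicate 2 or A344 replicate 3, edgeR called 0 rows higher, and without A344 replicate 2 it called 1. Without A344 replicate 3 the median of the GRMZM rows was −0.44. No share or median over all tested rows was taken for the fits without 1 library.

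**Figure D2:**
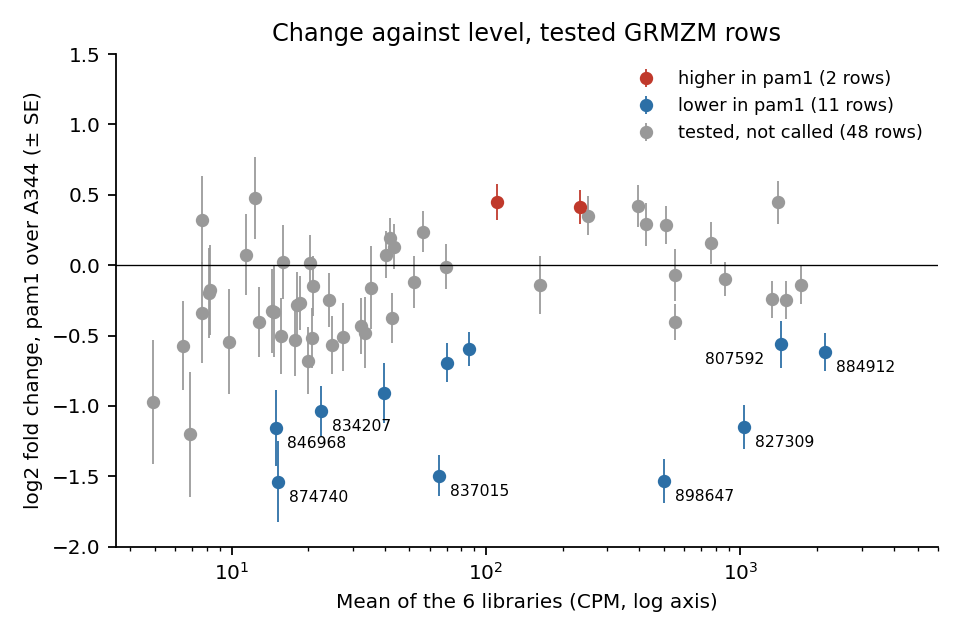
Fitted log2 fold change of *pam1* over A344 (± SE) against the mean CPM of the 6 libraries (log axis), 1 point per tested GRMZM row. Rows that fell (blue) occur from about 15 to over 2000 CPM and 6 of them lie below −1, while both rows that rose (red) lie under 0.5; numbers on points are the identifier after GRMZM5G.

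The falls with the lowest adjusted p were in the neighbouring rows GRMZM5G837015 and GRMZM5G898647. GRMZM5G837015 had 31.0, 32.4 and 40.9 CPM in *pam1* replicates 1 to 3, against 100.0, 97.5 and 91.2 CPM in A344 replicates 1 to 3. The groups lay far apart, and the mutant stood at 0.355 of the A344 level (log2 fold change −1.49 ± 0.14 SE, edgeR adjusted p = 1.73e-05). GRMZM5G898647, the next row of the table and one with many more counts, had 281, 227 and 271 CPM in *pam1* replicates 1 to 3, against 909, 703 and 607 CPM in A344 replicates 1 to 3. Again every *pam1* library lay below every A344 library, at 0.345 of the A344 level (log2 fold change −1.53 ± 0.16 SE, edgeR adjusted p = 3.01e-05). Without each library in turn, its log2 fold change was −1.66 to −1.38, and that of GRMZM5G837015 was −1.63 to −1.42.

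GRMZM5G834207, directly after these, had 13.8, 15.8 and 15.0 CPM in *pam1* replicates 1 to 3, against 30.2, 31.3 and 29.1 CPM in A344 replicates 1 to 3. The libraries within each group were close together and the groups lay apart (log2 fold change −1.04 ± 0.18 SE, edgeR adjusted p = 0.0014). GRMZM5G827309, also among the 10 rows with the most counts, had 605, 627 and 719 CPM in *pam1* replicates 1 to 3, against 1551, 1576 and 1131 CPM in A344 replicates 1 to 3. It fell in every *pam1* library relative to every A344 library, and *pam1* replicate 3 was the highest of the mutant libraries (log2 fold change −1.15 ± 0.16 SE, edgeR adjusted p = 0.000227). These 4 rows kept their calls under every alternative fit that was run, the scaling to the GRMZM sum included, with adjusted p-values over those alternatives of 2.06e-18 to 0.000378 for GRMZM5G837015, 7.44e-27 to 0.000433 for GRMZM5G898647, 1.80e-16 to 0.00709 for GRMZM5G827309 and 4.16e-05 to 0.0262 for GRMZM5G834207.

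Another group of falls involved GRMZM5G807592, GRMZM5G846968 and GRMZM5G874740, which follow each other in the table. GRMZM5G874740 had 6.88, 6.94 and 9.99 CPM in *pam1* replicates 1 to 3, against 29.7, 22.4 and 15.4 CPM in A344 replicates 1 to 3. The *pam1* libraries were all below the lowest A344 library (log2 fold change −1.54 ± 0.29 SE, edgeR adjusted p = 0.00254), though the row rests on only 52 counts over the *pam1* libraries and 150 over the A344 libraries. It kept its call in every alternative fit, with adjusted p-values of 1.93e-07 to 0.0173. GRMZM5G846968 averaged 9.35 ± 2.31 CPM (SD, n = 3) in *pam1*, against 20.5 ± 5.09 CPM (SD, n = 3) in A344, with a log2 fold change of −1.16 (edgeR adjusted p = 0.0108). Its call was lost without *pam1* replicate 2 (edgeR adjusted p = 0.0596) and with the GRMZM sum as library size (0.053), over a range of 0.000182 to 0.0596. GRMZM5G807592 had 1278, 1151 and 1094 CPM in *pam1* replicates 1 to 3, against 2257, 1474 and 1400.4 CPM in A344 replicates 1 to 3. A344 replicate 1 was far above the other A344 libraries, and all of these were above *pam1* (log2 fold change −0.56 ± 0.17 SE, edgeR adjusted p = 0.0399). Its log2 fold change was −0.34 without A344 replicate 1, and its call was lost without that library (edgeR adjusted p = 0.104), without *pam1* replicate 1 (0.0842), 2 (0.139) or 3 (0.112) and with library size alone (0.0525) or the GRMZM sum as library size (0.319), over a range of 0.000172 to 0.319.

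GRMZM5G884912, the GRMZM row with the most counts, had 1659, 1737 and 1727 CPM in *pam1* replicates 1 to 3, against 2918, 2557 and 2271 CPM in A344 replicates 1 to 3. The *pam1* libraries were close to each other and all below the A344 libraries (log2 fold change −0.62 ± 0.13 SE, edgeR adjusted p = 0.00692). It took 10.9 ± 1.05% (SD, n = 3) of GRMZM counts in *pam1*, against 14.0 ± 0.203% (SD, n = 3) in A344. GRMZM5G861791 averaged 27.9 ± 7.22 CPM (SD, n = 3) in *pam1*, against 51.4 ± 13.1 CPM (SD, n = 3) in A344, without overlap of the groups (log2 fold change −0.91 ± 0.21 SE, edgeR adjusted p = 0.0106), and kept its call in every alternative fit (adjusted p 7.70e-06 to 0.0465). GRMZM5G889790 averaged 54.5 ± 5.77 CPM (SD, n = 3) in *pam1*, against 86.3 ± 10.4 CPM (SD, n = 3) in A344 and GRMZM5G844030 69.0 ± 3.38 CPM (SD, n = 3) in *pam1*, against 103 ± 4.72 CPM (SD, n = 3) in A344. Their log2 fold changes were −0.69 (edgeR adjusted p = 0.00395) and −0.60 (edgeR adjusted p = 0.00376), and both fell in every *pam1* library relative to every A344 library. With the GRMZM sum as library size, calls were also lost for GRMZM5G884912 (edgeR adjusted p = 0.229), GRMZM5G889790 (0.0958) and GRMZM5G844030 (0.165), over ranges of 1.92e-05 to 0.229, 0.000129 to 0.0958 and 0.000994 to 0.165.

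**Figure D3:**
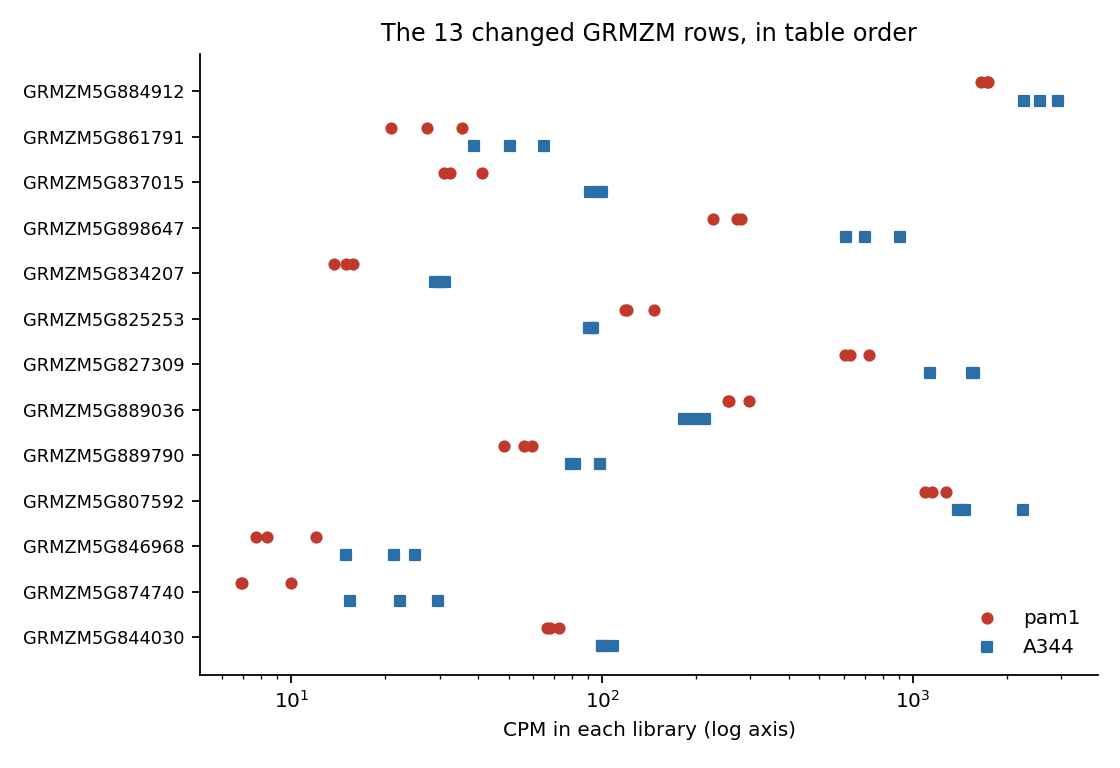
CPM in each library (log axis) for the 13 GRMZM rows that changed, in table order, with *pam1* (red dots, upper of each pair) and A344 (blue squares, lower). The *pam1* and A344 libraries do not overlap in any of the 13 rows, and *pam1* lies to the right only for GRMZM5G825253 and GRMZM5G889036.

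The groups did not overlap in 19 of the 61 tested rows, or 31.1%, against a background of 31.2%. By direction, 24.6% of GRMZM rows had every *pam1* library below every A344 library (background 14.0%) and 6.56% the reverse (background 17.3%). The number of rows with separate groups was thus near the background, while the direction differed. All 13 changed rows were among the 19.

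Both rises were small. GRMZM5G825253 had 147, 119.8 and 118 CPM in *pam1* replicates 1 to 3, against 90.9, 93.3 and 92.9 CPM in A344 replicates 1 to 3. The A344 libraries were almost at the same level and *pam1* replicate 1 was the highest (log2 fold change 0.45 ± 0.13 SE, edgeR adjusted p = 0.0281). GRMZM5G889036 had 298, 257 and 255 CPM in *pam1* replicates 1 to 3, against 214, 184 and 199 CPM in A344 replicates 1 to 3, again without overlap and with *pam1* replicate 1 the highest (log2 fold change 0.41 ± 0.12 SE, edgeR adjusted p = 0.0344). Without *pam1* replicate 1 neither was called (edgeR adjusted p = 0.16 and 0.175). The call of GRMZM5G825253 was also lost without *pam1* replicate 2 (0.0542), without A344 replicate 1 (0.0601) or 3 (0.0757) and under DESeq2 (0.107), over a range of 0.0115 to 0.16. That of GRMZM5G889036 was also lost without *pam1* replicate 2 (0.0756) or 3 (0.0562), without A344 replicate 2 (0.0783) or 3 (0.0891) and under DESeq2 (0.0674), over a range of 0.011 to 0.175.

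Of the 10 rows with the most counts, 3 fell and 7 were not called. GRMZM5G804358 was the one with the largest difference among the 7. It had 1869, 1652 and 1389 CPM in *pam1* replicates 1 to 3, against 1414, 1097 and 1033 CPM in A344 replicates 1 to 3. *pam1* replicate 3 lay below A344 replicate 1, so the groups overlapped (log2 fold change 0.45 ± 0.15 SE, edgeR adjusted p = 0.0687). It was called with the replicate number as a block (edgeR adjusted p = 0.00445), without *pam1* replicate 3 (0.0464) or A344 replicate 1 (0.0193), by limma voom (0.0407), with no low-count filter (0.0113) and with the GRMZM sum as library size (0.0202), over a range of 0.00445 to 0.281. As a part of all GRMZM counts it held 11.0, 10.5 and 9.52% in *pam1* replicates 1 to 3, set against 6.68, 6.09 and 6.40% in A344 replicates 1 to 3, without overlap.

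The other 6 did not pass the test. GRMZM5G845024 held 8.88 ± 0.579% (SD, n = 3) of GRMZM counts in *pam1*, against 8.86 ± 0.235% (SD, n = 3) in A344, and GRMZM5G867512 held 7.82 ± 0.243% (SD, n = 3) of GRMZM counts in *pam1*, against 7.80 ± 0.250% (SD, n = 3) in A344, so their parts of the GRMZM total were nearly equal. Their log2 fold changes were −0.25 and −0.24 (edgeR adjusted p = 0.253 and 0.265). GRMZM5G884538 averaged 1661 ± 157 CPM (SD, n = 3) in *pam1*, against 1800.0 ± 225 CPM (SD, n = 3) in A344 and GRMZM5G851769 849.8 ± 35.2 CPM (SD, n = 3) in *pam1*, against 894 ± 11.5 CPM (SD, n = 3) in A344. Their log2 fold changes were −0.14 and −0.10 (edgeR adjusted p = 0.571 and 0.656). GRMZM5G890451 averaged 815 ± 146 CPM (SD, n = 3) in *pam1*, against 718 ± 94.1 CPM (SD, n = 3) in A344, with a log2 fold change of 0.16 (edgeR adjusted p = 0.551). GRMZM5G836994 had 595, 603 and 438 CPM in *pam1* replicates 1 to 3, against 754, 492 and 445 CPM in A344 replicates 1 to 3. Its highest library was A344 replicate 1, and its log2 fold change was −0.07 (edgeR adjusted p = 0.853). A p that misses the threshold does not show that these rows were equal.

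The 5 rows with the largest differences among those that did not pass the test all had lower means in *pam1*. GRMZM5G891801 averaged 4.20 ± 1.61 CPM (SD, n = 3) in *pam1*, against 9.55 ± 5.19 CPM (SD, n = 3) in A344 and GRMZM5G889299 averaged 3.40 ± 2.17 CPM (SD, n = 3) in *pam1*, against 6.44 ± 2.14 CPM (SD, n = 3) in A344. Their log2 fold changes were −1.20 ± 0.45 and −0.97 ± 0.44 SE (edgeR adjusted p = 0.0928 and 0.174), on 27 counts over the *pam1* libraries and 61 over the A344 libraries and on 22 counts over the *pam1* libraries and 43 over the A344 libraries. GRMZM5G890747, GRMZM5G822401 and GRMZM5G874394 had log2 fold changes of −0.68, −0.57 and −0.57 (edgeR adjusted p = 0.0775, 0.275 and 0.0889). GRMZM5G890747 was called with the replicate block (edgeR adjusted p = 0.038), with no low-count filter (0.0243) and without A344 replicate 3 (0.0338), over a range of 0.0243 to 0.266. GRMZM5G891801 was called without the filter on low counts (edgeR adjusted p = 0.0135) and without A344 replicate 3 (0.0331), over a range of 0.0135 to 0.309. GRMZM5G874394 was called with no low-count filter (edgeR adjusted p = 0.0474), over a range of 0.0474 to 0.367.

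By level, the 19 tested rows of at least 100 CPM held 4 falls and 2 rises, and 13 were not called. Of all tested rows at that level, 18.5% changed in either direction. The median log2 fold change of the 19 was −0.10, beside −0.09 for all tested rows at that level. The 34 rows of 10 to 100 CPM held 7 falls, and 27 were not called by edgeR. Of all tested rows there, 13.4% changed in either direction. The median of the 34 was −0.35, beside −0.01 for all tested rows. Among the 34, 0 rose by edgeR, DESeq2 or limma voom, and 0 were higher at an unadjusted p under 0.05 in any of these. Of the 8 rows under 10 CPM, 0 were called by edgeR, DESeq2 or limma voom. With no low-count filter edgeR called 1, and 2 had an unadjusted p under 0.05 in the main edgeR fit. Of all tested rows at that level, 17.9% changed in the main fit. No share of all tested rows was taken at an unadjusted p or with no low-count filter. The median of the 8 was −0.44, beside 0.13 for all tested rows at that level. By median, low and middle rows thus lay further below their background than high rows did, without a test of that difference.

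The lower GRMZM sum in *pam1* was split by row. Summed over all 174 rows, the difference of the means (*pam1* minus A344) was −2693 CPM, made of −3777 CPM over 72 rows with a lower mean and 1084 CPM over 43 rows with a higher mean. The 11 rows that fell added up to −2851 CPM, the 2 that rose to 107 CPM and all other rows together to 51.6 CPM. Those 11 were called lower in these same libraries, so a negative sum follows from how they were picked. All other rows hold differences of both signs that offset each other. The 3 most negative rows, GRMZM5G884912, GRMZM5G827309 and GRMZM5G807592, gave −2179 CPM. Without A344 replicate 1 the difference of the sums was −1334 CPM. On the other side GRMZM5G804358 gave 455 CPM. Without GRMZM5G884912 the GRMZM share was 1.40 ± 0.123% (SD, n = 3) in *pam1* against 1.59 ± 0.221% (SD, n = 3) in A344 (p = 0.3 by a two-sided exact permutation test). That difference of −0.182 points was −0.0628 without A344 replicate 1 and −0.282 without A344 replicate 3.

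**Figure D4:**
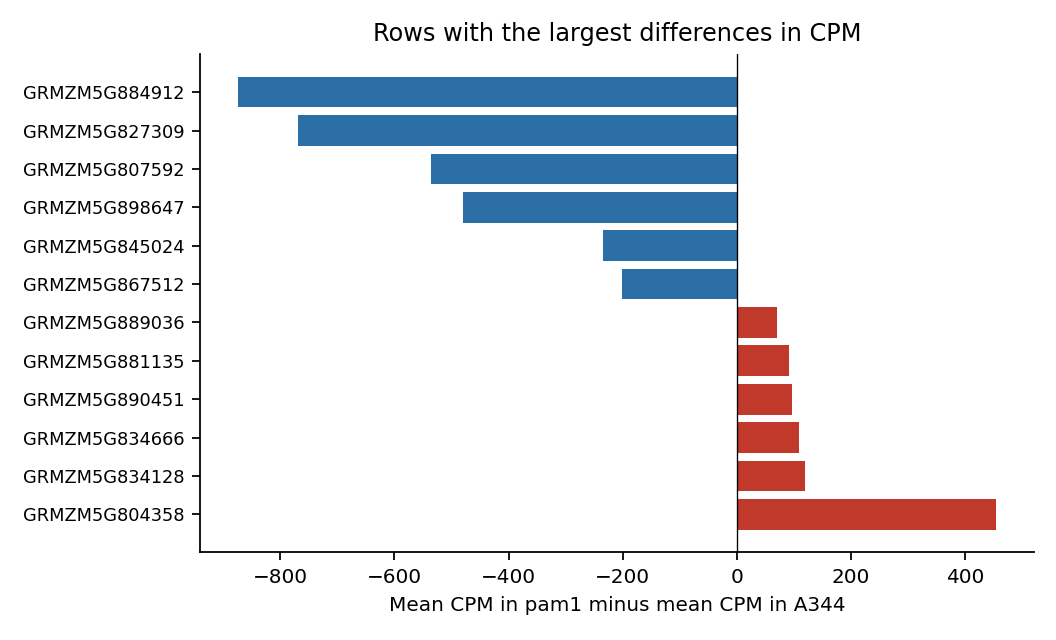
Mean CPM in *pam1* minus mean CPM in A344 for the 6 GRMZM rows with the most negative and the 6 with the most positive difference, named on the vertical axis. The bars run from −874 CPM for GRMZM5G884912 to 455 CPM for GRMZM5G804358; bars show differences of means without error bars.

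In the table the 174 rows form 1 unbroken run at positions 44301 to 44474, from GRMZM5G816453 to GRMZM5G855343, after the last Zm00001d row. The rows with counts were unevenly placed in it. Cut into 6 stretches of 29 rows, the run held 6, 15, 17, 17, 4 and 2 tested rows from its start to its end. The second stretch held 7 of the 13 changed rows, with 6 falls and 1 rise, the third 1 fall and 1 rise and the fourth 4 falls. Stretches 1, 5 and 6 held 0 changed rows by edgeR among 12 tested, 3 of which had an unadjusted p under 0.05. DESeq2 called 1 of the 12, limma voom 2, edgeR with no low-count filter 2 and edgeR with the replicate block 3. Over all tested rows, 14.9% changed by edgeR, and with the replicate block 8.41% fell and 9.71% rose. By DESeq2, 3.34% of all rows with an adjusted p fell and 4.27% rose. No such share was taken for limma voom, for the fit with no low-count filter or at an unadjusted p. GRMZM5G862955, at position 118, was just short of a call (log2 fold change −0.40, edgeR adjusted p = 0.0501). Every *pam1* library lay below every A344 library in it. It was called with the replicate block (edgeR adjusted p = 0.0184) and by DESeq2 (0.0229), and was chosen after its values were seen.

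The lower sum of GRMZM counts lay mainly in the second stretch. It had 3382, 3331 and 3368 CPM in *pam1* replicates 1 to 3, against 6179, 5538 and 4642 CPM in A344 replicates 1 to 3. The *pam1* libraries were nearly equal, and every A344 library lay above them, with replicate 1 the highest. The means were 3361 ± 26.1 CPM (SD, n = 3) in *pam1*, against 5453 ± 772 CPM (SD, n = 3) in A344, a difference of −2092 CPM. The third stretch averaged 4024 ± 430.2 CPM (SD, n = 3) in *pam1*, against 3969 ± 269 CPM (SD, n = 3) in A344. The fourth averaged 4016 ± 406 CPM (SD, n = 3) in *pam1*, against 4678 ± 821 CPM (SD, n = 3) in A344 and the first 3096 ± 304 CPM (SD, n = 3) in *pam1*, against 2897 ± 399 CPM (SD, n = 3) in A344, both with overlap between the groups. Between libraries of the same number, *pam1* was lower in 3 of 3 pairs in the fourth stretch and in 0 of 3 in the first. The stretches were drawn after the data were seen, and no test was run on them.

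Fitted changes of adjacent rows were correlated. Pearson's correlation between the log2 fold changes of neighbours was 0.59 over 43 pairs of adjacent tested GRMZM rows and 0.12 over 8893 adjacent pairs in the rest of the table. Signs matched in 28 of the 43 GRMZM pairs (65.1%), against 51.9% of the other pairs. Of the tested GRMZM rows, 72.1% were fitted below 0, which by itself raises the share of matching signs. The other pairs were not matched to the GRMZM rows for level. Pairs share libraries, and successive pairs share a row, so these values are descriptions across rows. Whether neighbours also share reads was not tested. The direction could change between neighbours too: GRMZM5G834207 fell, while the next rows, GRMZM5G834128 (log2 fold change 0.42, edgeR adjusted p = 0.0837) and GRMZM5G825253, had higher means in *pam1*. GRMZM5G834128 was chosen after its values were seen.

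**Figure D5:**
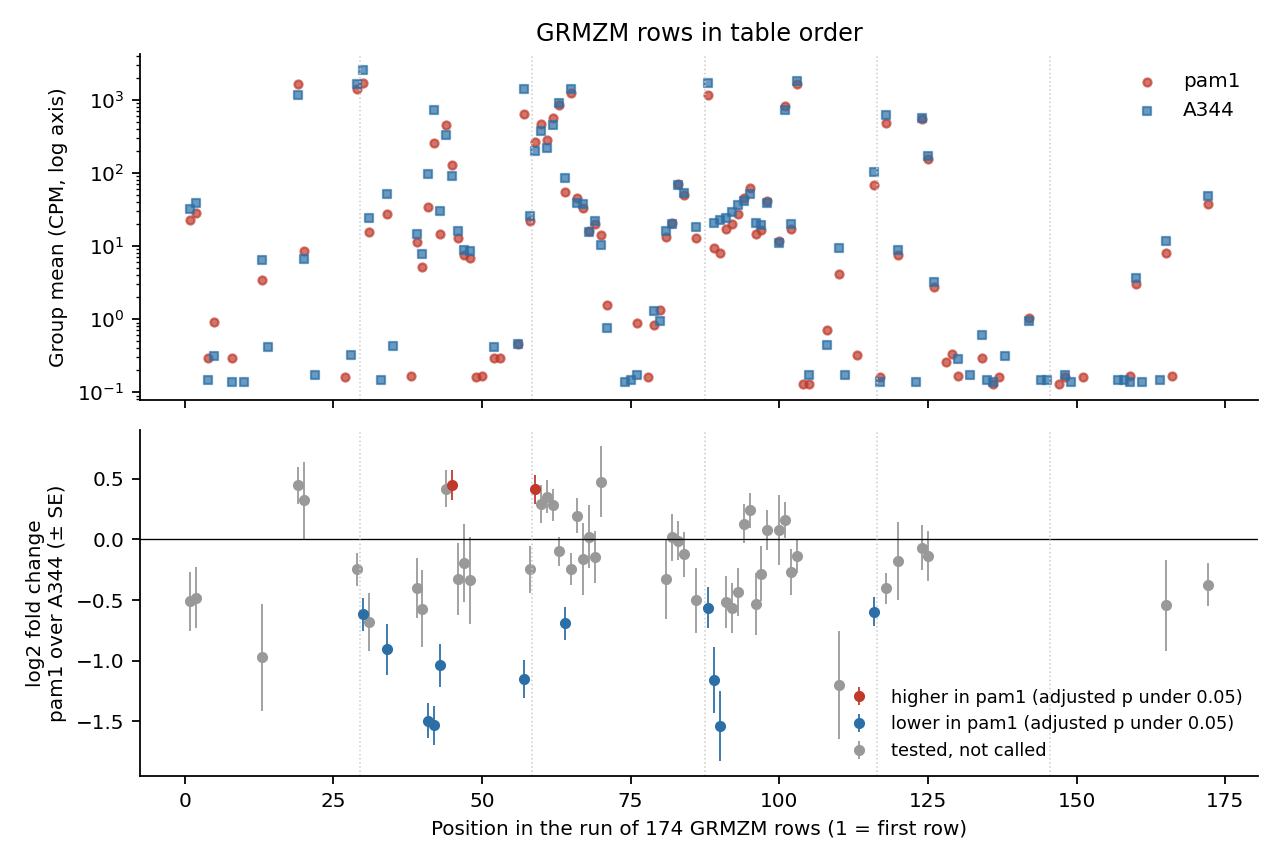
The run of GRMZM rows in table order (horizontal axis), with group mean CPM above (log axis; rows with a mean of 0 in a group are not drawn) and log2 fold change ± SE of tested rows below; dotted lines bound the 6 stretches. The rows that fell lie at positions 30 to 64 and 88 to 116, and none of the 13 changed rows lies before position 30 or after position 116. GRMZM5G862955 at position 118 was just short of a call (edgeR adjusted p = 0.0501).

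Libraries of a group differed in many GRMZM rows at once. Among the 61 tested rows, the highest *pam1* library was replicate 1 in 38 rows, replicate 2 in 13 and replicate 3 in 10, while over all tested rows each *pam1* library was highest in 32.6 to 33.9% of rows. In A344, replicate 1 was highest in 31 rows, replicate 2 in 26 and replicate 3 in 4, or 6.56%, beside 30.6% for replicate 3 over all tested rows. For the 53 GRMZM rows of at least 10 CPM, the median SD of log2(CPM + 1) was 0.174 in *pam1* and 0.260 in A344 (n = 3 each), beside 0.162 and 0.205 for all tested rows at that level. Leaving out A344 replicate 3, the library with the lowest GRMZM share in its group, gave 16 falls and 0 rises. The share of all tested rows called in that fit was not taken. The part of these library differences in the comparison was not tested.

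The 113 rows that were not tested held 121 counts in *pam1* and 123 in A344. For the 59 rows with no count in any library, a floor of 3 counts over a group allows up to 0.452 CPM in *pam1* and 0.454 CPM in A344. GRMZM5G800096 had the most counts of the untested rows, at 4.91, 3.08 and 0.999 CPM in *pam1* replicates 1 to 3, against 7.85, 2.09 and 0.881 CPM in A344 replicates 1 to 3. Its highest values were those of replicate 1 in both groups, which overlapped.

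In the authors' deposited table, 12 of 67 GRMZM rows with an adjusted p were called, or 17.9%, against a background of 7.61%. All 12 were higher in A344, and 11 of them were also called by edgeR. Its log2 values run as A344 over *pam1*. For GRMZM5G898647 the authors' deposited table gives 1.56 with an adjusted p of 9.48e-19, and for GRMZM5G837015 1.52 with 3.71e-11. GRMZM5G825253 and GRMZM5G889036, which rose by edgeR, have adjusted p-values of 0.107 and 0.0674 in the authors' deposited table. It was made from the same counts and is no independent check.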

How the data were processed

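Anther RNA-seq counts of 3 *pam1* and 3 A344 libraries were used. The deposited values are whole-number counts per row, not normalized, per the file headers and values. Per the submitters' processing notes, the tools were STAR, Bowtie2 2.4.5, DESeq2 and MACS2, with no role stated. The counting program, its strand setting, its handling of reads with several matches and the genome build are not given in these sources. The labels' protocols name a directional kit and total RNA, and not whether poly(A) RNA was selected. The authors' deposited table holds a mean signal per row, log2 fold changes with SE, a Wald score and p-values, per the file headers. For 115 of 115 GRMZM rows its log2 value was minus that of a DESeq2 1.42.0 fit, within 0.001. The authors' deposited peak list gives a fold enrichment, −log10 p and q values and a score per peak.

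Rows were tested as *pam1* minus A344 over the whole table with edgeR 4.0.16 in R 4.3.3 (TMM, filterByExpr, quasi-likelihood test, two-sided). Alternatives used DESeq2, limma 3.58.1 voom, other scalings and filters, a replicate block and leaving out each library. The SE beside an edgeR log2 fold change was calculated back from the test. It is the size of the log2 fold change divided by the square root of the quasi-likelihood F value. CPM values are on library totals without TMM factors. Shares were compared with exact permutation tests (Python 3.11.15, scipy 1.17.1). Tested GRMZM rows had a median of 48 to 91 counts per library. In simulated data for this comparison, with 18363 rows tested, edgeR found 71% of 100 rows made to differ 2-fold and 96% of 100 made to differ 4-fold, and made 9 false calls. All simulated rows and both groups were given the same spread beyond counting error. In the data the spread differed between the groups, so these rates may not hold for the GRMZM rows. Deviations of same-numbered libraries from their group means correlated at 0.13, 0.12 and 0.13 over all tested rows, each above 0.1, and those of other pairs at −0.15 to 0.02. Over the tested GRMZM rows alone the same-numbered values were 0.16, 0.02 and 0.11, and those of other pairs −0.17 to 0.05. From the values over all tested rows only, the numbers were taken to pair the libraries in the within-pair comparisons and the replicate block. The main edgeR fit, which gave the called rows and their p-values, had no block. The labels do not say what they mark. No pair of replicates was a duplicate: chi-square per degree of freedom was 1.99 to 5.42.

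Named rows are those that edgeR called (13), the 10 with the most counts and the 5 uncalled rows with the largest change. The members, rules and lists were chosen with earlier results of these data known. None of 16 lists of plastid and mitochondrial genes could be used, as 0 rows had a symbol. Per-sample columns left unused numbered 0.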

Additional observations from a re-analysis of the deposited data

Results flagged for a closer look

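The anti-PAM1 RNA immunoprecipitation from A344 anthers is outside the comparison of *pam1* with A344, but its combined peak list holds signal over IgG on an organelle contig. In the authors' deposited list, 3 of 711 peaks lie on the contig named Mt and 0 on a contig named Pt. They cover positions 400420 to 400746 (327 bp, fold enrichment 1.39, −log10 q 2.05), 402983 to 403183 (201 bp, 1.71, 6.03) and 419801 to 421026 (1226 bp, 1.52, 6.63), counted from 1. The median fold enrichment of all peaks in the list was 3.94. The list gives no value per sample and no strand, and which GRMZM rows, if any, lie under these peaks was not tested.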

How the results depend on the processing

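The numbers of changed, lower and higher GRMZM rows were 13, 11 and 2. Leaving out 1 library gave 9 to 16 changed, 9 to 16 lower and 0 to 3 higher rows. No background over all tested rows was taken for these fits. There were 0 higher rows without *pam1* replicate 1, *pam1* replicate 2 or A344 replicate 3, and 1 without A344 replicate 2. Stricter limits called fewer by construction: 8 changed rows and 0 higher at an adjusted p limit of 0.01, and 6 changed rows, 6 lower and 0 higher where the log2 change also had to reach 1 in size. The number of higher rows was 0 under DESeq2, 4 with no low-count filter and 5 with the replicate block. Over the whole table, 4.27% of rows with an adjusted p were higher by DESeq2, and 9.71% of tested rows with the block. No such share was taken with no low-count filter. The cause was not tested. The block kept all 13 calls and, of the 25 named rows, added GRMZM5G804358 and GRMZM5G890747. With library sizes set to the GRMZM sum, a scaling chosen after seeing the data, 5 rows were higher and 6 lower, 8 of the 13 calls were shared, and the median log2 fold change was −0.0226 against −0.27, since this scaling centres the GRMZM rows. The median ranged from −0.44 to −0.21 when 1 library was left out, lowest without A344 replicate 3. The 25 named rows had 350 values under alternatives: 309 with an unchanged call, 22 with a lost and 12 with a gained call, and 7 of opposite sign. Changes of sign were seen only in uncalled rows: with the GRMZM sum, GRMZM5G884538 (0.11), GRMZM5G845024 (0.00444), GRMZM5G867512 (0.00519), GRMZM5G851769 (0.14) and GRMZM5G836994 (0.19), and the last also without *pam1* replicate 3 (0.0572) or A344 replicate 1, in a range of −0.22 to 0.17 when 1 library was left out. The difference in GRMZM share stayed negative in every alternative. It was −0.385 to −0.133 points without 1 library, and −0.282 to −0.0628 points without GRMZM5G884912 and 1 library. Of the settings that leave out 1 library, that without A344 replicate 1 gave the smallest difference. Without the 10 rows with the most counts, the share was 0.407% in *pam1* against 0.450% in A344. That difference was −0.0429 points (p = 0.4 by a two-sided exact permutation test). Relative to A344 it was 9.52% lower, beside 14.6% lower for all GRMZM rows. As summed CPM the difference over all GRMZM rows was −3848 to −1334 without 1 library. With the replicate block, signs flipped within numbers gave an exact p of 0.25, the smallest that 3 pairs allow. Depth limits the 54 rows with counts that were not tested.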
